A study of Mus musculus with 203 samples.

Results

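Genes of developmental transcription regulators were followed in single neurons of the nucleus ambiguus (Amb), the brainstem column of motor neurons that send axons through the vagus to the heart, airways and larynx. They were the cut homeobox genes Onecut1, Onecut2 and Onecut3, the POU homeobox genes Pou4f1, Pou4f2 and Pou3f1, the Eyes absent genes Eya1 and Eya4, and the Mab21-like genes Mab21l1 and Mab21l2, 10 of the 24029 genes in the deposited table. They were selected by name with earlier results of these same neurons known, so their levels in the neuron types are a description and no test was made of them.

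Neurons were labeled in wild-type C57BL/6 mice (substrain C57BL/6NCrl in the study's methods) at postnatal day 1 by cholera toxin B, a tracer carried back along axons, placed either around the heart or in the cricothyroid muscle of the larynx. Labeled cells were aspirated at postnatal days 2 to 4 and each was sequenced alone by Smart-seq2, a plate method that amplifies full-length cDNA by PCR. The deposited annotation puts 53 heart-labeled neurons in the type ACP, 98 in the type ACV and 52 larynx-labeled neurons in Larynx. ACP and ACV were defined by clustering the counts of these neurons, the labels name neither a mouse nor a plate for a neuron, and each type was therefore treated as 1 sample, without p-values.

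Levels are given as counts per 10000 of each neuron's counts outside Rn45s, the ribosomal RNA precursor, which took 37% ± 12.9 (SD) of the counts of an ACP neuron, 38.5% ± 14.8 of an ACV neuron and 58.2% ± 15.7 of a Larynx neuron. The remaining depth had medians of 1115375 counts in ACP, 1120511.5 in ACV and 560892 in Larynx neurons, so the Larynx neurons were shallower for every other gene. Slc18a3, the vesicular acetylcholine transporter, had reads in all 53 ACP, 98 ACV and 52 Larynx neurons. Calb1, the calcium-binding protein that marks ACP, averaged 1.76 in ACP, 0.388 in ACV and 0.299 in Larynx, while Bche, the butyrylcholinesterase that marks ACV, averaged 0.146, 0.994 and 0.0133. All 6 listed astrocyte genes had reads in each type, and their summed level ran from 0.0455 to 93.5 in ACP, from 0.178 to 306 in ACV and from 0.183 to 167.4 in Larynx neurons. All 7 listed oligodendrocyte-lineage genes and all 5 microglial genes had reads in each type. Of the 5 vascular genes 4 had reads in ACP, where Flt1, an endothelial receptor, was at 0. All 5 listed genes of other neurons (Slc17a6, Slc32a1, Gad1, Gad2 and Slc6a5) had reads in each type. The most widely detected of these was found in 66% of ACP, 71.4% of ACV and 82.7% of Larynx neurons. Apoe, an astrocyte transcript, exceeded 1800 counts in 11 ACP, 28 ACV and 0 Larynx neurons.

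On the GRCm38 (mm10) assembly with the GENCODE vM21 annotation, Onecut1 spans chr9:74861921-74891781, Onecut2 chr18:64340020-64400987 and Onecut3 chr10:80494835-80517276, all on the plus strand. Pou4f1 lies at chr14:104461676-104467999 and Pou4f2 at chr8:78433010-78436645, both on the minus strand, with Pou3f1 at chr4:124656807-124660655 on the plus strand. Eya1 lies at chr1:14168954-14310235 and Eya4 at chr10:23102963-23350786, on the minus strand. Mab21l1 is a single exon at chr3:55782510-55785001 inside Nbea, sharing 981 exon bases with it on the opposite strand. Mab21l2 is a single exon at chr3:86545581-86548629 inside Lrba, sharing 1097 exon bases in the same way. Pou3f1 shares 330 exon bases with the antisense gene Gm2164 and Onecut1 shares 2171 with the noncoding gene Gm20649, neither of which has a row in the table. The program and strand setting used for counting are not given in the sources used here, so reads in these shared stretches are uncertain. No run of 75 bases, the read length, was shared exactly between the exons of Onecut1, Onecut2 and Onecut3, or within the Pou4f, Eya or Mab21l pairs.

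Onecut factors bind DNA through a cut domain beside a homeodomain and act in newly formed motor neurons and other neurons, where they help to set subtype identity. POU4 factors are best known from sensory neurons and retinal ganglion cells, and POU3F1, also called SCIP or Oct6, from somatic motor columns and myelinating Schwann cells. Eya proteins are coactivators with phosphatase activity that work with Dach proteins and the sine oculis homeobox proteins, and the Mab21-like proteins act in eye and neural development by a mechanism that is poorly defined.

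RefSeq start sites on GRCm38.p6 were at hand for Onecut1, Pou4f1, Pou4f2, Eya4 and Mab21l2, and the 250 bases before the start are printed for the first 3, the windows that lie outside the annotated gene. They are shown because Onecut1 and Pou4f1 were detected in a larger share of ACP than ACV neurons, with Pou4f2 beside its paralog. Each reads 5′ to 3′ on the gene's strand, at chr9:74861671-74861920 (plus), chr14:104468000-104468249 (minus) and chr8:78436648-78436897 (minus), with CG dinucleotides in capitals.
Onecut1: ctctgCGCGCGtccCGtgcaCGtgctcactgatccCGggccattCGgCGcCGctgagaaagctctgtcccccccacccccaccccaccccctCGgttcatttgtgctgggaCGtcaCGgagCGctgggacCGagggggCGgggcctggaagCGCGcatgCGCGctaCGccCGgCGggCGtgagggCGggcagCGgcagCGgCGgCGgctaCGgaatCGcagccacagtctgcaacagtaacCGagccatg
Pou4f1: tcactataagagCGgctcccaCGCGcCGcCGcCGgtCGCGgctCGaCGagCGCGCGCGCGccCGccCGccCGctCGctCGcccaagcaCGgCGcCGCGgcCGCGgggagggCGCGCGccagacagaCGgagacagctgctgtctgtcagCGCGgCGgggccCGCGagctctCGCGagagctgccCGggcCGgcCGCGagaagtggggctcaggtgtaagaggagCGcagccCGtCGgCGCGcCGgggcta
Pou4f2: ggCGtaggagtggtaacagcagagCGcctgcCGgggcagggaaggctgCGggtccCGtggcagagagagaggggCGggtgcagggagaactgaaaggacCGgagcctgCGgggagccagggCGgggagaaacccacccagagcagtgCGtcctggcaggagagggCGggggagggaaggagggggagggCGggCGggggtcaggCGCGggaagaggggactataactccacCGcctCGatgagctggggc
The windows held 31, 47 and 17 CG dinucleotides, where the median of 32851 promoter windows of this length was 6. GC content was 71.6% for Onecut1, 78% for Pou4f1 and 70.8% for Pou4f2, against a median of 52.4%. The ONECUT core letters ATCAAT and ATCGAT, the octamer ATGCAAAT and the POU4F letters ATAATTAAT, searched on both strands, were in none of the 3 windows. They were in 6.72%, 0.728%, 1.60% and 0.259% of all windows, and none of these motifs contains another.

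To see where the factors stood among all genes, the ratio of mean levels between types was taken for each gene that had a read in 10% or more of one type's neurons. At a 2-fold ratio, 6 of the 9 factors that passed this filter were higher in ACP than ACV neurons and 0 were lower, where 9.87% and 8.63% of 13357 genes were. The 6 were Onecut1, Onecut3, Pou4f1, Eya4, Mab21l2 and Pou3f1. Against Larynx neurons, 4 of 9 were higher in ACP, namely Onecut1, Onecut3, Pou4f1 and Eya4, with 10.3% of 13257 genes, and 2, Onecut2 and Pou3f1, were higher in Larynx, with 12.5%. Between Larynx and ACV neurons 7 passed the filter, 5 of them 2-fold higher in Larynx (14% of 13298 genes) and 0 in ACV (10.4%). Since the factors were selected with these contrasts known, the counts stand beside the background without further reading. Onecut1, Onecut3 and Eya4 passed the filter against ACV only through the ACP or Larynx neurons in which they were high. Onecut1 and Onecut3 likewise passed against Larynx only through ACP, and Eya1 passed in none. The median log2 ratio of ACP over ACV was 2.25 for the 9 factors and 0.00 for all genes tested. The comparisons share neuron types and are not independent.

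**Figure D1:**
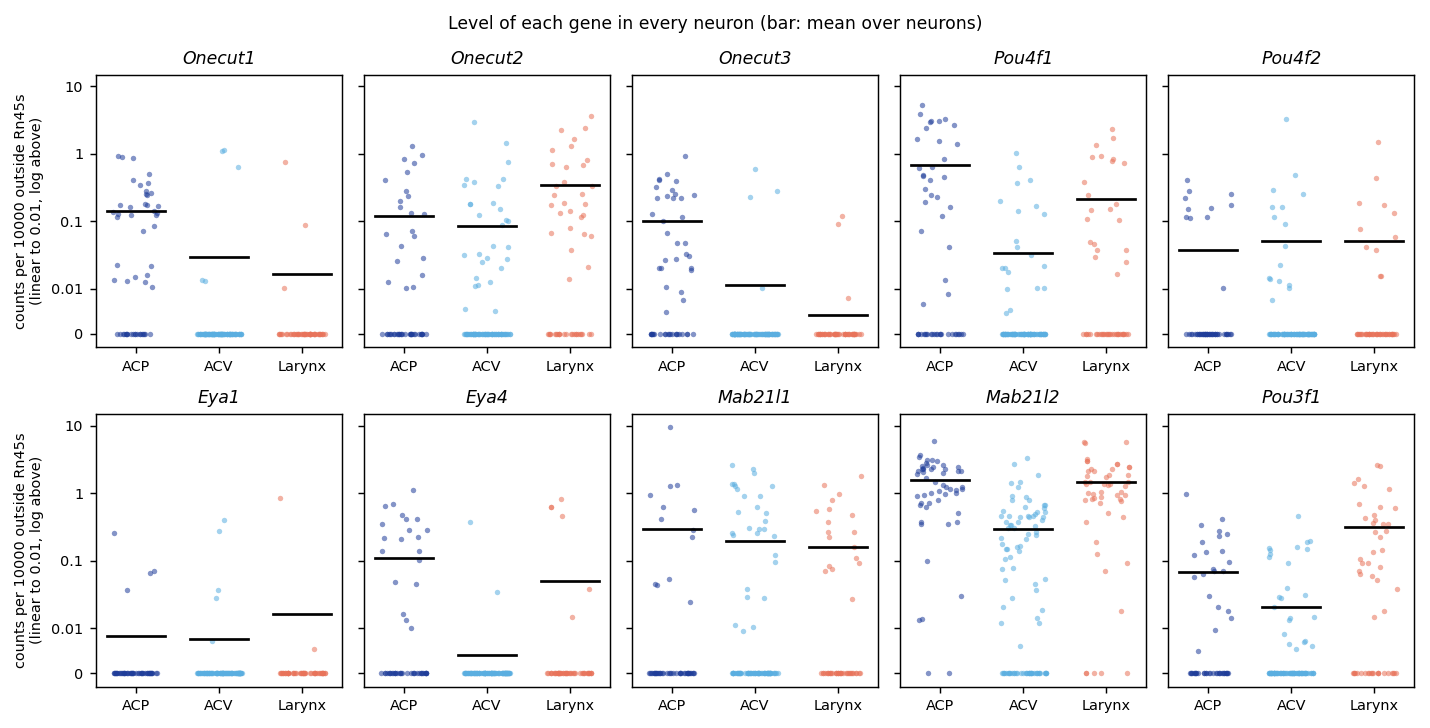
Level of each of the 10 genes (counts per 10000 of the counts outside Rn45s, linear to 0.01 and logarithmic above) in every ACP, ACV and Larynx neuron, with a bar at the mean over neurons. Onecut1, Onecut3 and Eya4 had reads in 5, 4 and 2 of 98 ACV neurons, Mab21l2 was high in ACP and Larynx neurons alike, and Onecut2 and Pou3f1 had their highest means in Larynx.

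Onecut1, first known as a liver-enriched factor, and its relative Onecut3 were detected mostly in ACP neurons. Onecut1 had reads in 33 of 53 ACP neurons (62.3%, exact 95% interval 47.9% to 75.2%), 5 of 98 ACV neurons (5.10%, 1.68% to 11.5%) and 3 of 52 Larynx neurons (5.77%, 1.21% to 15.9%). In ACP its level had a lowest value of 0, a median of 0.0221 and a highest value of 0.941, and in both other types the lowest value and the median were 0. The highest ACV neuron stood at 1.15 and the highest Larynx neuron at 0.771, so the ranges overlapped although few neurons outside ACP had a read. Mean levels were 0.141 ± 0.227 (SD) in ACP, 0.0297 ± 0.171 in ACV and 0.0167 ± 0.107 in Larynx neurons. The ACP mean was 4.75 times the ACV mean and 8.42 times the Larynx mean, the latter 64.4 times without the highest neuron of each type, since 1 Larynx neuron held 88.6% of the summed Onecut1 level there. With Rn45s in the totals the ratio over ACV was 9.09, and among neurons with at most 1800 counts of Apoe it was 17.2. With at most 900 counts of Apoe the ratio over Larynx was 5.18.

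Onecut3 had reads in 31 of 53 ACP neurons (58.5%, 44.1% to 71.9%), 4 of 98 ACV neurons (4.08%, 1.12% to 10.1%) and 3 of 52 Larynx neurons (5.77%, 1.21% to 15.9%). Its ACP level ran from 0 over a median of 0.0192 to 0.948, while the highest ACV neuron was at 0.606 and the highest Larynx neuron at 0.120, with medians of 0 in both. Mean levels of 0.103 ± 0.179, 0.0116 ± 0.0711 and 0.00425 ± 0.0208 gave ratios of 8.86 over ACV and 24.2 over Larynx. Without the highest neuron of each type these ratios were 15.8 and 43.7, 1 Larynx neuron holding 54.4% of the Larynx level. With Rn45s in the totals the ratio over ACV was 19, and at 500000 or more counts outside Rn45s the ratios were 18.3 and 15. The means came from 777 Onecut3 reads in ACP (exact Poisson 95% interval 723 to 834), 58 in ACV (44 to 75.0) and 16 in Larynx (9.15 to 26). Intervals cover counting error only, as PCR reads without molecular identifiers are not independent molecules.

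Onecut2 had another pattern, with its highest mean in Larynx neurons. It had reads in 22 of 53 ACP (41.5%, 28.1% to 55.9%), 30 of 98 ACV (30.6%, 21.7% to 40.7%) and 29 of 52 Larynx neurons (55.8%, 41.3% to 69.5%). The levels began at 0 in each type, had medians of 0, 0 and 0.0500, and reached 1.32 in ACP, 2.94 in ACV and 3.67 in Larynx neurons, so all 3 ranges overlapped widely. The Larynx mean, 0.352 ± 0.720, was 2.96 times the ACP mean of 0.119 ± 0.272 and 4.05 times the ACV mean of 0.0867 ± 0.345. ACP and ACV differed by a ratio of 1.37.

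Pou4f1, known as Brn3a in sensory neurons, had the highest level per length of the POU factors followed, 0.148 counts per 10000 per kilobase of exon in ACP neurons. It had reads in 29 of 53 ACP neurons (54.7%, 40.4% to 68.4%), 20 of 98 ACV neurons (20.4%, 12.9% to 29.7%) and 22 of 52 Larynx neurons (42.3%, 28.7% to 56.8%). The ACP levels ran from 0 over a median of 0.0136 to 5.25, the ACV levels from 0 to 1.04 and the Larynx levels from 0 to 2.32, the last 2 with medians of 0. The values in ACP neurons were thus split between many at 0 and some that were higher than in any neuron of the other types. Means were 0.692 ± 1.23 in ACP, 0.0340 ± 0.136 in ACV and 0.214 ± 0.476 in Larynx. The ACP mean was 20.3 times the ACV mean and 3.23 times the Larynx mean, and the Larynx mean was 6.28 times the ACV mean, 10.3 times among neurons with at most 900 counts of Apoe. Among neurons with a read, the median was 0.486 in ACP, 0.0369 in ACV and 0.166 in Larynx.

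Pou4f2, the Brn3b factor of retinal ganglion cells, was sparse in every type. It had reads in 11 of 53 ACP (20.8%, 10.8% to 34.1%), 16 of 98 ACV (16.3%, 9.63% to 25.2%) and 11 of 52 Larynx neurons (21.2%, 11.1% to 34.7%), with medians of 0 and highest values of 0.411, 3.34 and 1.52. Its means of 0.0380 ± 0.0885, 0.0515 ± 0.342 and 0.0520 ± 0.220 lay within 2-fold of each other, and 1 ACV neuron held 66.2% of the summed level in that type. Without the highest neuron of each type the ratio of ACP over ACV turned from 0.738 to 1.75.

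Pou3f1 was lowest in ACV neurons and highest in Larynx neurons. It had reads in 22 of 53 ACP (41.5%, 28.1% to 55.9%), 24 of 98 ACV (24.5%, 16.4% to 34.2%) and 31 of 52 Larynx neurons (59.6%, 45.1% to 73%). Levels started at 0 in each type, with medians of 0, 0 and 0.0615, and reached 0.982, 0.459 and 2.62, so that the ranges overlapped while the top of the Larynx range stood above the others. The Larynx mean of 0.321 ± 0.596 was 4.73 times the ACP mean of 0.0679 ± 0.159 and 15.6 times the ACV mean of 0.0206 ± 0.0625. The ACP mean was 3.30 times the ACV mean, a ratio of 1.47 among neurons with at most 900 counts of Apoe. In those neurons Larynx was 18.8 times ACP and 27.7 times ACV, and at 500000 or more counts outside Rn45s Larynx was 2.61 times ACP.

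Eya4, a coactivator linked to hearing and heart muscle, had reads in 20 of 53 ACP neurons (37.7%, 24.8% to 52.1%), 2 of 98 ACV neurons (2.04%, 0.248% to 7.18%) and 6 of 52 Larynx neurons (11.5%, 4.35% to 23.4%). The median was 0 in each type, and the highest level was 1.12 in ACP, 0.369 in ACV and 0.811 in Larynx. Means were 0.110 ± 0.222, 0.00411 ± 0.0374 and 0.0496 ± 0.173, an ACP over ACV ratio of 26.9 that rests on 35 ACV reads (24.4 to 48.7), 91.5% of the ACV level in 1 neuron. Without the highest neuron of each type it was 257. The ratio of ACP over Larynx was 2.23, below the 2-fold limit at 1.98 with DESeq2 size factors, 3.38 with Rn45s in the totals and 4.88 among neurons with at most 900 counts of Apoe. The Larynx mean was 12.1 times the ACV mean, and 97.7 times without the highest neuron of each type.

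Eya1, its relative in ear, kidney and cranial ganglion development, had reads in 4 ACP, 5 ACV and 2 Larynx neurons. Highest values were 0.261, 0.407 and 0.836, and the means were 0.00820, 0.00766 and 0.0162, with too few neurons holding a read in any type to order the types.

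Mab21l2 was the most widely detected of the 10 factors. It had reads in 51 of 53 ACP neurons (96.2%, 87% to 99.5%), 59 of 98 ACV neurons (60.2%, 49.8% to 70%) and 47 of 52 Larynx neurons (90.4%, 79% to 96.8%). The ACP levels had a lowest value of 0, a median of 1.24 and a highest value of 5.91, the ACV levels 0, 0.0531 and 3.36, and the Larynx levels 0, 1.16 and 5.70. ACP and Larynx neurons covered nearly the same range, and ACV neurons lay mostly in its lower end. Means were 1.58 ± 1.18, 0.294 ± 0.535 and 1.48 ± 1.36, so ACP and Larynx were 5.35 and 5.03 times ACV and 1.06 apart. Among neurons with at most 900 counts of Apoe, ACP was 8.96 times ACV. Lrba, inside which Mab21l2 lies, had means of 0.193, 0.114 and 0.224, below those of Mab21l2 in each type, and its part in the Mab21l2 counts was not tested. Per kilobase of exon the Mab21l2 mean in ACP was 0.517, against 0.117 for Mab21l1, 0.0343 for Onecut1, 0.0215 for Onecut3, 0.0117 for Eya4 and 0.00731 for Onecut2.

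Mab21l1, the paralog, did not share this pattern. It had reads in 13 of 53 ACP (24.5%, 13.8% to 38.3%), 29 of 98 ACV (29.6%, 20.8% to 39.7%) and 18 of 52 Larynx neurons (34.6%, 22% to 49.1%), with medians of 0 and highest values of 9.68, 2.64 and 1.78. The means of 0.292 ± 1.35, 0.198 ± 0.496 and 0.158 ± 0.355 were within 2-fold of each other, and the single ACP neuron at 9.68 held 62.5% of the ACP level. Without the highest neuron of each type the ACP over ACV ratio fell from 1.47 to 0.646. Nbea, which Mab21l1 overlaps, averaged 1.53, 1.33 and 2.24, and its part in the Mab21l1 counts was not tested.

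Ordered by mean level, the 10 factors gave 20 pairs of neighbouring types, and on the natural log scale of the level plus 1 the pair differed by more than the smaller of their SDs over neurons in 5. These were Onecut3 between ACP and ACV, Pou4f1, Eya4 and Mab21l2 between Larynx and ACV, and Pou3f1 between Larynx and ACP. In the other 15 pairs the neurons varied within a type by more than the types differed.

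**Figure D2:**
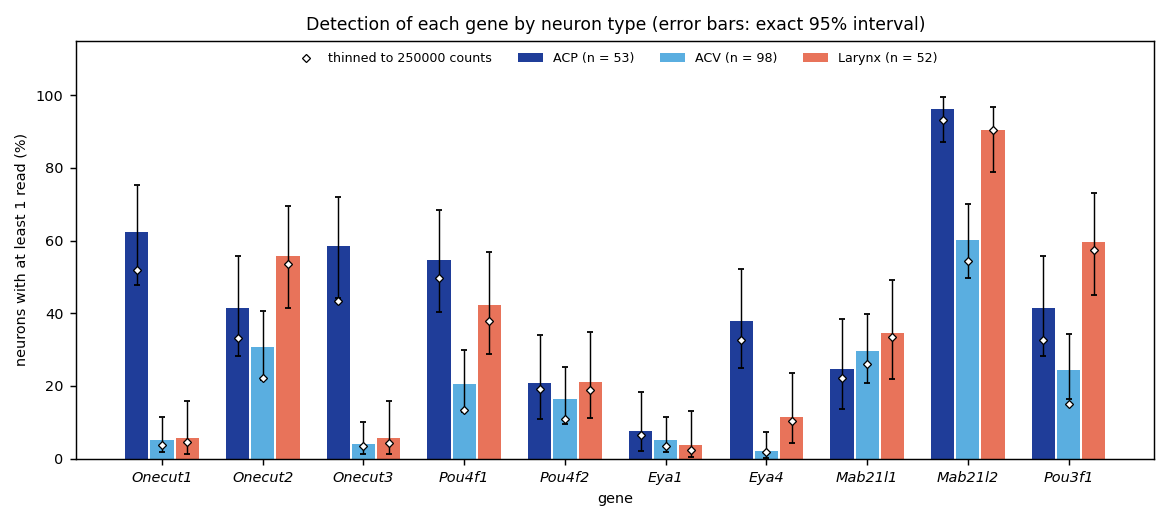
Share of ACP, ACV and Larynx neurons with at least 1 read of each gene, in percent, with exact 95% intervals (error bars) and the share expected after thinning each neuron to 250000 counts outside Rn45s (diamonds). For Onecut1, Onecut3 and Eya4 the ACP bars are higher than those of ACV and Larynx, and so are the ACP diamonds. The intervals belong to the bars, cover counting error only and are no test between types.

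Because Larynx neurons were shallower outside Rn45s, detection was recomputed at a common depth of 250000 counts, which left out 3 Larynx neurons and no ACP or ACV neuron. Onecut1 was then expected in 51.9% of ACP, 3.71% of ACV and 4.53% of Larynx neurons, Onecut3 in 43.4%, 3.33% and 4.33%, and Eya4 in 32.6%, 1.67% and 10.4%. For Pou4f1 the shares were 49.6%, 13.3% and 38%, and for Mab21l2 93.1%, 54.2% and 90.5%. The order of the types for these genes was the same as without thinning.

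The ACV neurons with reads of the ACP-high factors had higher median levels of glial RNA, by Apoe and by the summed glial and vascular markers. Of the 98 ACV neurons, 9 had a read of Onecut1, Onecut3 or Eya4, and all 9 had more than 900 counts of Apoe, from 1106 to 7877 with a median of 2756. The other 89 ranged from 0 to 45046 with a median of 904, 45 of them above 900, so the ranges overlapped. The summed glial and vascular markers had a median of 60.1 in ACV neurons with Onecut1 and 16.1 in those without, of 52.8 and 16.1 for Onecut3, and of 180 in the 2 neurons with Eya4 against 16.3. Among the 44 ACV neurons at or below 900 counts of Apoe, 0 had a read of any of these 3 genes, which by the limit of 3 counts allows a share of up to 6.82% each. For the ratio, the ACV level was set to 3 reads over these 44 neurons. With that setting the ACP over ACV ratios at this Apoe limit were 208 for Onecut1, 167.8 for Onecut3 and 150.9 for Eya4. They follow from the setting and are not lower bounds, since a share of up to 6.82% would allow a higher ACV mean. In ACP the 44 neurons with a read of at least 1 of these genes had a median of 917.5 Apoe counts and the 9 without had 1057. Mab21l2 had reads in 54.5% and Pou4f1 in 6.82% of the 44 ACV neurons. The 7 ACV neurons with Onecut1 or Onecut3 also had a lower median depth, 767605 counts outside Rn45s against 1174320 in the other 91. Their mean level of the T-box gene Tbx2 was 1.04 against 0.0523, with a Tbx2 read in 2 of the 7. Of the summed Tbx2 level in ACV, 1 neuron held 52.9%. Mean Calb1 was 0.443 against 0.384 and mean Bche 0.745 against 1.01. Whether RNA of neighbouring cells contributed to the reads in ACV neurons was not tested.

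The number of factors detected in the same neuron also differed by type. ACP neurons had reads of 1 to 9 of the 10 factors with a median of 4, ACV neurons 0 to 6 with a median of 2 and Larynx neurons 1 to 6 with a median of 3. At least 4 factors were found in 38 of 53 ACP neurons (71.7%), 14 of 98 ACV neurons (14.3%) and 22 of 52 Larynx neurons (42.3%). No factor was found in 14 ACV neurons, and every ACP and Larynx neuron had at least 1. Of all genes, medians of 7903 were detected in ACP, 7627 in ACV and 7594 in Larynx neurons. Because the factors were selected with earlier results of these neurons known, the counts per neuron partly follow from that selection and are a description.

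**Figure D3:**
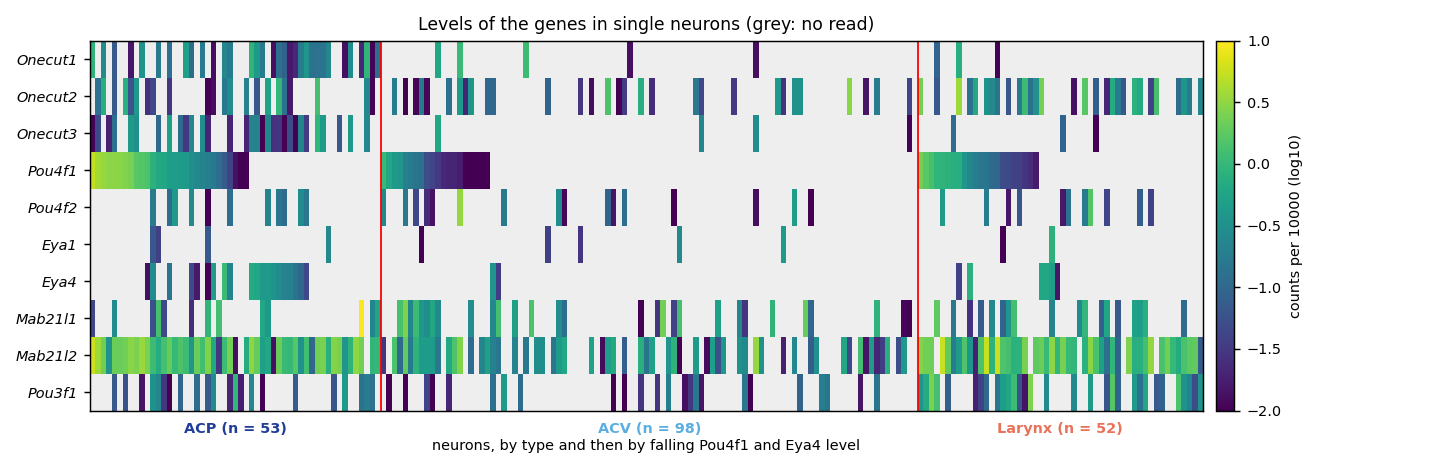
Level of the 10 genes (rows, log10 of counts per 10000 outside Rn45s, grey where no read was counted) in all neurons of the 3 types (columns), grouped by type and ordered within a type by falling Pou4f1 and then Eya4 level. Rows of Onecut1, Onecut3 and Eya4 are filled mostly among the 53 ACP neurons, and Mab21l2 is filled in 51 of them.

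Within ACP neurons Onecut1 and Onecut3 were often found together. At least 1 of Onecut1 and Onecut3 was detected in 41 of 53 ACP neurons (77.4%, 63.8% to 87.7%), against 7 of 98 ACV neurons (7.14%, 2.92% to 14.2%) and 6 of 52 Larynx neurons (11.5%, 4.35% to 23.4%). Both were detected in 23 ACP neurons, which were 23 of the 33 neurons with Onecut1 (69.7%, 51.3% to 84.4%) and 23 of the 31 with Onecut3 (74.2%, 55.4% to 88.1%). Of the 20 neurons without Onecut1, 8 had Onecut3 (40%, 19.1% to 63.9%), an interval that overlaps the former. Onecut2 was found in 14 of the 33 ACP neurons with Onecut1 (42.4%) and in 8 of the 20 without (40%), nearly equal shares. It was found in 15 of the 31 with Onecut3 (48.4%) and in 7 of the 22 without (31.8%). At least 2 of the 3 Onecut genes were found in 32 ACP neurons and all 3 in 10, where 5 ACV and 4 Larynx neurons had 2 or more. ACP neurons with an Onecut1 read had a median of 1315991 counts outside Rn45s and 8362 genes detected, those without 1039853 and 7379.5, so deeper neurons were more often counted as having it. Pearson's r of the natural log levels over the 53 neurons was 0.20 for Onecut1 and Onecut3, neurons that share the amplification and depth of each library.

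Pou4f1 was divided otherwise. Onecut1 was detected in 13 of the 29 ACP neurons with a Pou4f1 read (44.8%, 26.4% to 64.3%) and in 20 of the 24 without (83.3%, 62.6% to 95.3%). The intervals overlapped between 62.6% and 64.3%, and thinned to the common depth the shares were 41.9% and 61.8%. Depth was alike in both sets, with medians of 1076639 and 1170404 counts outside Rn45s. With a minimum of 5 reads in place of 1, 11 of 25 neurons with Pou4f1 and 14 of 28 without had Onecut1, and the shares then lay closer together. Onecut3 was found in 15 of 29 (51.7%) and 16 of 24 (66.7%), and the intervals of 32.5% to 70.6% and 44.7% to 84.4% overlapped. Over all combinations of Onecut1, Onecut3 and Pou4f1, 9 ACP neurons had all 3, 14 had both Onecut genes without Pou4f1, 10 had Pou4f1 alone and 2 had none. In ACV the largest class was none, in 73 of 98 neurons, followed by Pou4f1 alone in 18, and in Larynx these were 28 and 18 of 52.

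**Figure D4:**
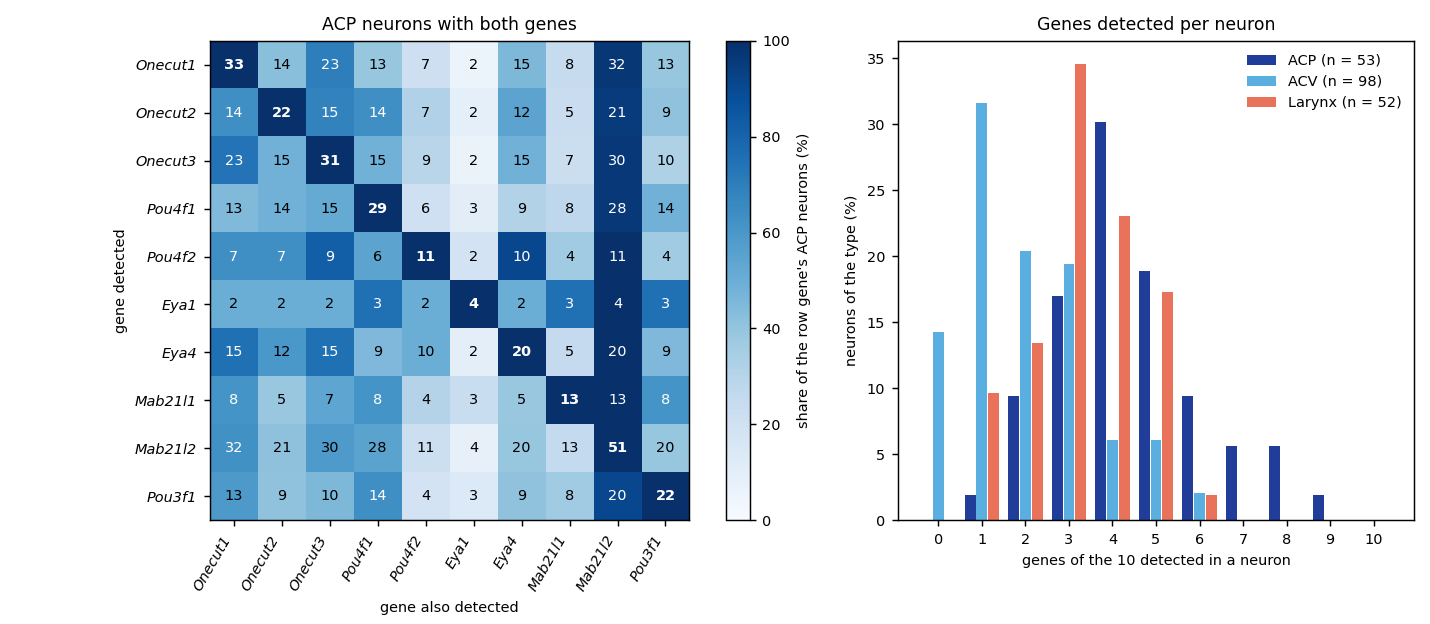
Left, ACP neurons in which both the row gene and the column gene had a read (numbers, with each gene's own count on the diagonal), shaded by the share of the row gene's neurons in percent. Right, the share of ACP, ACV and Larynx neurons by the number of the 10 genes detected, with medians of 4, 2 and 3.

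Eya4 and Pou4f2 were found together more narrowly. Of the 11 ACP neurons with a Pou4f2 read, 10 also had Eya4 (90.9%, 58.7% to 99.8%), against 10 of the 42 without Pou4f2 (23.8%, 12.1% to 39.5%), and the intervals did not overlap. The pair was singled out among all pairs of the 10 factors with the values seen, so the intervals only describe it. With 5 reads as the minimum, 9 of 10 and 8 of 43 neurons had Eya4, and at the common depth the shares were 81.8% and 21%. Over the 53 ACP neurons the log levels of Pou4f2 and Eya4 had r = 0.12 (Spearman's rho 0.45), and r = 0.28 without the neurons highest in either gene. In ACV and Larynx neurons no cell had both genes, where Pou4f2 had reads in 16 and 11 neurons and Eya4 in 2 and 6. ACP neurons with Pou4f2 were deeper, with a median of 1450003 counts outside Rn45s against 1094747.5. Eya4 was seen in 9 of 29 neurons with Pou4f1 (31%, 15.3% to 50.8%) and 11 of 24 without (45.8%, 25.6% to 67.2%). The highest Pou4f1 level in an ACP neuron with Eya4 was 1.42. Of the 10 ACP neurons above it, which by that definition hold no Eya4 read, 5 had Onecut1 and 6 had Onecut3, a limit chosen after the values were seen.

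Calb1, whose protein marks ACP neurons, had a read in every ACP neuron with Eya4 or Pou4f2. It was detected in 20 of 20 ACP neurons with Eya4 (100%, 83.2% to 100%) and 21 of 33 without (63.6%, 45.1% to 79.6%), and in 11 of 11 with Pou4f2 and 30 of 42 without. Outside ACP it was detected in 2 of 2 ACV and 2 of 6 Larynx neurons with Eya4, and in 12 of 16 ACV and 7 of 11 Larynx neurons with Pou4f2. For Pou4f1 the counts were 21 of 29 with and 20 of 24 without. Over the 53 ACP neurons the log levels of Pou4f1 and Calb1 had r = -0.43 (Spearman's rho -0.36) and those of Eya4 and Calb1 r = 0.22 (rho 0.43). Pou4f1 and Mab21l2 had r = 0.45 (rho 0.30) and 0.37 without the neuron highest in both, and Pou4f1 and Eya4 had r = -0.29 (rho -0.28). Onecut2 and Onecut3 had r = 0.33, but 0.01 without 1 neuron that was highest in both. ACP was defined on these same counts, and the values describe these neurons.

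**Figure D5:**
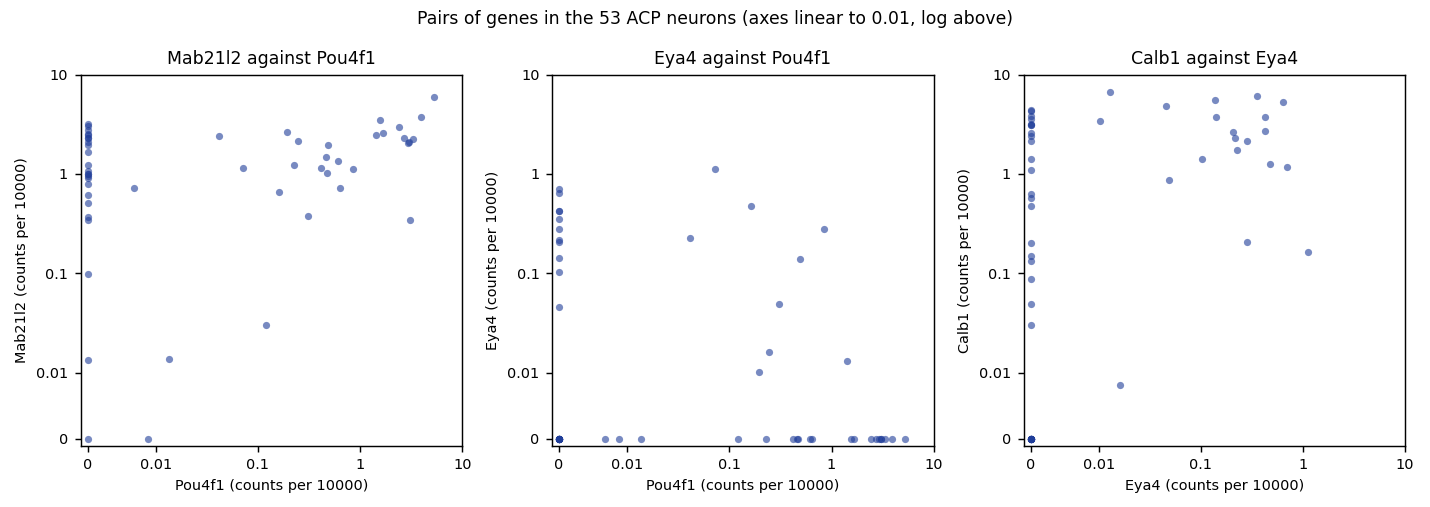
Levels of 3 pairs of genes in the 53 ACP neurons (counts per 10000 outside Rn45s, both axes linear to 0.01 and logarithmic above, each point 1 neuron). Mab21l2 and Pou4f1 levels had r = 0.45, with Mab21l2 down to 0.346 among the 10 neurons above 1.42 for Pou4f1, Pou4f1 and Eya4 had r = -0.29, and Calb1 had a read in all 20 neurons with Eya4.

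Relatives of the factors were taken from a list of POU, Eya, sine oculis, Dach, CUT and Mab21 family genes. Among the other POU genes that passed the filter, Pou3f2 was 2-fold higher in ACP than ACV neurons and Pou2f2 was 2-fold lower. Pou3f2, a factor of upper-layer and hypothalamic neurons, had reads in 49 of 53 ACP, 67 of 98 ACV and 34 of 52 Larynx neurons, with means of 0.446, 0.211 and 0.289. Pou4f3, the third Brn3 gene, had reads in 0 ACP, 0 ACV and 2 Larynx neurons.

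Among the other Eya, sine oculis and Dach family genes, 5 passed the filter, of which Six3, Dach1 and Dach2 were 2-fold higher in ACP than ACV and 0 were lower, beside 9.87% and 8.63% of all genes tested. Six3 had reads in 6 of 53 ACP and 13 of 98 ACV neurons, 1 ACP neuron held 54.2% of its ACP level, and its ratio of 4.31 was 2.42 without the highest neuron of each type. All 5, Eya2 and Eya3 with these 3, were 2-fold higher in Larynx than ACV, beside 14% of all genes tested. Eya2, with reads in 7 of 98 ACV and 10 of 52 Larynx neurons, passed the filter there only through the Larynx neurons in which it was high. Dach1, a corepressor that acts with sine oculis and Eya proteins, had reads in 34 of 53 ACP, 26 of 98 ACV and 25 of 52 Larynx neurons, with means of 0.243, 0.0255 and 0.112, an ACP over ACV ratio of 9.54. Six4 had reads in 4 Larynx neurons and Six2 in 0 neurons of each type. Six5 had reads in 2 of 53 ACP neurons.

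Among the other CUT genes, Cux2 was 2-fold higher in ACP than Larynx, at 0.238 and 0.0898. Cux1 was broad, with reads in 50 ACP, 90 ACV and 44 Larynx neurons. Of 4 Mab21 relatives that passed, 0 differed 2-fold between ACP and ACV in either direction, beside 9.87% and 8.63% of all genes tested. With 4 genes, 0 is not read as a difference from those shares. Mab21l3 had reads in 3 ACP neurons, 0 ACV neurons and 0 Larynx neurons.

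The genes whose levels followed the factors most closely over all neurons of the 3 types, by Pearson's r of the natural log of the level plus 1, were mostly themselves type-biased. For Pou4f1 they were D130009I18Rik (r = 0.66), a noncoding gene whose annotated body begins 144792 bases from Pou4f1 on chromosome 14, Ttyh2 (0.60) and the growth factor gene Fgf10 (0.58). D130009I18Rik had reads in 26.4% of ACP, 1.02% of ACV and 15.4% of Larynx neurons. For Onecut3 they were the guidance gene Sema3d (0.45), Cpne7 (0.43) and Cox6a2 (0.39), and Sema3d had reads in 73.6%, 13.3% and 9.62% of the 3 types. For Onecut1 the T-box gene Tbx2 (0.41) stood beside D930028M14Rik (0.42).

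Mab21l2 was most like Slc35f4 (0.49), the tachykinin receptor gene Tacr3 (0.46) and Vsnl1 (0.44), and Eya4 like C1qtnf1 (0.40), Zfp97 (0.39) and the protocadherin gene Pcdh18 (0.38). Pou3f1 was most like Wnt7a (0.60), the urotensin gene Uts2 (0.52) and Timp3 (0.51), and Uts2 had reads in 61.5% of Larynx neurons, 9.43% of ACP and 8.16% of ACV. Onecut2 was most like Wipf1 (0.52), Ttll3 (0.46) and Heg1 (0.43), values that fell to 0.19, 0.26 and 0.27 without the neurons highest in either gene. The r of Eya4 with C1qtnf1 fell likewise to 0.17, while that of Pou4f1 with D130009I18Rik was 0.66 and that of Onecut3 with Sema3d 0.45. These are likenesses across neurons that share type, depth and amplification, without a test.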

How the data were processed

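Neurons were grouped by the deposited cluster annotation. The authors trimmed reads, aligned them to mm10 with STAR 2.6.1d (the tools and build also named in the submitters' processing notes) and deposited raw read counts per gene for each neuron. The counting program and strand setting are not given in the sources used here. The methods state a limit of 1800 Apoe counts, while 39 deposited neurons exceed it, and they were kept. A deposited table named CPM was not used, because its columns do not share 1 common sum. No 2 neurons had identical counts.

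The genes, lists and alternatives were chosen with earlier results of these data known. Named genes were the 10 factors, listed relatives past a 2-fold ratio, overlapping genes, type markers, and for each factor detected in at least 25% of ACP neurons the 3 genes with the highest r among genes detected in at least 10% of neurons. Relatives outside these limits are named where a count is given. Some genes that these rules would name are not reported here. Counts were divided by each neuron's total without Rn45s and multiplied by 10000. A type with 0 reads of a gene was given 3 reads over the type for its ratio. A share of 0 was given 3 counts as its upper limit. Other shares have exact Clopper-Pearson and read sums exact Poisson 95% intervals. Thinned shares are exact hypergeometric expectations. Outside Rn45s neurons held 118492 to 2396541 counts.

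Alternatives were totals with Rn45s, edgeR 4.0.16 TMM library sizes, DESeq2 1.42.0 size factors, exponentiated log means, neurons with at most 900 Apoe counts or at least 500000 counts outside Rn45s, leaving out the highest neuron of each type, at least 5 reads, other detection filters and a 4-fold ratio. A limit of 1800 Apoe counts was chosen after seeing the data. Analyses used Python 3.11.15, scipy 1.17.1 and R 4.3.3, and were tested on simulated data.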

Additional observations from a re-analysis of the deposited data

How the results depend on the processing

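Over all alternatives, log2 ratios of a factor between types dropped below the 2-fold limit in 6 cases, passed it in 10, changed sign below it in 24 and changed sign in 4 that had been past it. Onecut3 in Larynx over ACV turned from -1.45 to 2.47 among neurons with at most 900 Apoe counts, where ACV was at 0 and was set to 3 reads, and to 0.29 at 500000 or more counts outside Rn45s. Eya1 in Larynx over ACV turned from 1.08 to -2.32 with at most 900 Apoe counts and to -5.04 without the highest neuron of each type. With Rn45s in the totals, 3398 genes were 2-fold higher in ACP than Larynx, 695 in Larynx than ACP, 955 in Larynx than ACV and 3281 in ACV than Larynx, 1 factor (Mab21l1) among the last. The genes tested were unchanged, 13257 between ACP and Larynx and 13298 between Larynx and ACV. At 500000 or more counts, 1 factor (Mab21l1) was 2-fold higher in ACV than ACP, where 8.63% of 13357 genes were without that limit. In each of the 6 comparisons, that limit changed the number of all genes past 2-fold by at most 1.5 times.

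With genes detected in 25% of either type, 789 genes were higher in ACP than ACV, 537 in ACV than ACP, 817 in ACP than Larynx, 1017 in Larynx than ACP and 764 in ACV than Larynx. With no filter the counts were 3248, 2961, 2742 and 4004, with 4466 in Larynx over ACV and 2782 in ACV over Larynx, the latter with 1 factor, Onecut3. The share of all genes is not given for the setting without a filter, so that factor is not read against it. At a 4-fold ratio the counts were 393, 371, 433, 493, 542 and 461, with 2 factors higher in ACP and 1 in Larynx between those types. The 4-fold limit was applied to the same 13257 genes tested between ACP and Larynx.

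With at least 5 reads, 49.1% of ACP and 6.12% of ACV neurons had 4 or more factors, the ACV median was 1, and Onecut1 with Onecut3 fell to 26.4% and Onecut3 with Eya4 to 15.1% of ACP neurons. With at most 900 Apoe counts the ACV median was 1 and 6.82% of ACV neurons had 4 or more. Thinned, taking the genes' draws as independent, 56.5% of ACP neurons had 4 or more, the ACV median was 1.11, and Onecut1 with Onecut3 was at 28.8%. Where no cause is given above, the cause was not tested. The limit of 1800 Apoe counts, chosen after seeing the data, changed no count of factors past 2-fold by over 1.5 times. No paired analysis was possible because the labels give the neurons no shared replicate numbers. Levels of Eya1 in every type, and of Onecut1 and Onecut3 outside ACP, rest on a few neurons each, and a level under 3 counts over a type could not be seen at this depth.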
